A study of Mus musculus with 2 samples.

Results

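Cytosolic ribosomal proteins are the protein parts of the ribosome that translates nuclear mRNAs. The 85 mouse genes described here were chosen by symbol: Rpl or Rps followed by a number, with Rpsa and the stalk proteins Rplp0, Rplp1 and Rplp2 included, and with the Rps6k kinases and pseudogenes left out. By symbol they are 49 genes of the large subunit, 33 of the small subunit and 3 of the stalk, out of 21951 protein-coding genes of GENCODE M21. Also by symbol, 8 of them are paralogs of another member (Rpl10l, Rpl22l1, Rpl36al, Rpl39l, Rpl3l, Rpl7l1, Rps27l and Rps27rt). Rpl7l1 and Rps27rt fit the symbol rule but may not be core ribosomal proteins. A peak of YTHDF2 binding was listed for 7 of the 85 in the authors' deposited gene table, and 8 more peaks lay in introns of these genes.

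The cells were wild-type C2C12, a mouse myoblast line, kept for 4 to 5 days in 2% horse serum until they had fused into multinucleated myotubes, with no other treatment. RNA immunoprecipitation (RIP) with an antibody to YTHDF2 gave 1 library, and the lysate before the pulldown, the input, gave 1 library, both of batch 1. The comparison asks which RNAs YTHDF2 bound beyond their level in the input. There is no replicate, so no value below has a replicate error, and none was tested against one. IgG, named as the negative control, was not analysed here.

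YTHDF2 is a cytoplasmic protein that binds N6-methyladenosine (m6A) in mRNA and brings bound transcripts to the deadenylation machinery. Ribosomal protein mRNAs are short and abundant, and most begin with a 5′ terminal oligopyrimidine (TOP) tract, through which their translation follows nutrient and growth signals. Introns of many of these genes also carry small nucleolar RNAs (snoRNAs), which guide chemical modification of ribosomal RNA and are cut out of the excised intron.

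The 85 genes were short. Their bodies had a median of 3289 bp (374 to 31449) against 17403 bp for all protein-coding genes, and their mRNAs, by 1 representative transcript each, a median of 761 against 2369 bases. A median member had 5 exons and a coding sequence of 453 bases. At least 1 snoRNA lay within 30 members (35.3%), against 279 of 21951 protein-coding genes (1.27%). A C followed by 4 pyrimidines at the RefSeq transcript start, taken as a TOP-like start, was read in 14 of the 65 members with a promoter entry (21.5%) and in 813 of 27025 symbols (3.01%). The annotated start need not be the start used in these cells.

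The fragments at each summit carry the precision. Each pileup, the authors' height of a peak at its summit, is a whole multiple of 0.9, and 1 step was read as 1 RIP fragment. Fragments given for a peak are therefore those at its summit, not all those along its length. The input background under the summit was computed from the pileup and the fold enrichment. Across all 9271 listed peaks the median was 29.0 RIP fragments over a background of 5.00, with a fold enrichment of 4.40. Across the 1541 peaks in the gene table it was 57.0 fragments over 15.0, with a fold enrichment of 3.25. Total depth is unknown. For each fold enrichment an interval is given from the exact 95% Poisson limits of its RIP fragments, with the background held fixed. It covers counting error only, since PCR copies are not independent molecules. A row was found for 4 of 18 myotube markers (Mylpf, Neb, Tnnt1 and Tnni2) and 0 of 4 myoblast markers, against 5.81% of all protein-coding genes. A peak shows binding over input and gives no expression level, so these counts do not test the labelled cell type.

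The share of members with a row was 8.24% (7 of 85, Wilson 95% interval 4.05 to 16.0), and among all protein-coding genes it was 5.81%. There were 4 of the large subunit (Rpl5, Rpl14, Rpl15 and Rpl23) and 3 of the small subunit, among them Rps9 and Rps20. No stalk protein and no paralog was among them. With a q-value of 1e-05 or less 4 members remained (4.71%, interval 1.85 to 11.5), against 4.41% of all genes. With a fold enrichment of 4 or more there were 0 (interval 0 to 4.32), against 2.16%. The members' share was thus near the background under each of these gene-table rules, and the intervals hold the background value each time.

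Against genes of their own size the share was higher. Of the 67 members with a body of 5000 bp or less, 6 had a row (8.96%, interval 4.17 to 18.2), against 95 of 4154 protein-coding genes of that size (2.29%). Both this share and that of all protein-coding genes count every annotated gene, with no filter on expression in these cells. A length limit was set after earlier results were known. Input background under the members' peaks was also higher than under table peaks at large, with medians of 20.0 and 15.0, and its part in the share was not tested.

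The other assignments of peaks to genes use the full list. A peak touched an exon of any annotated transcript in 11 members (12.9%, interval 7.38 to 21.7), against 7.01% of all genes. The same 11 had the centre of a peak in an exon (6.21% of all genes) and most of a peak's length in exons (6.17%). For these exon rules, unlike those of the gene table, the interval lay above the share of all genes. When only exons of coding transcripts counted, 7 members were left, the 7 of the gene table, against 6.01% of all genes. A peak anywhere over the gene body was found for 14 members (16.5%, interval 10.1 to 25.8), against 15.0%. Among genes of 5000 bp or less that share was 14.9% of members (10 of 67) and 2.62% of all genes.

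Sequences under 3 peaks that reach coding bases are shown first, because they hold the start and stop codons that the authors marked. They were read from GRCm38, the assembly also called mm10, on the strand of the gene. Capitals mark the stop codon in Rpl14 (chr9:120574212-120574394, plus strand) and Rps20 (chr4:3834501-3834583, minus strand). In Rps9 (chr7:3704352-3704530, plus strand) they mark the coding bases from the start codon to the end of the exon, and the rest is intron.
Rpl14: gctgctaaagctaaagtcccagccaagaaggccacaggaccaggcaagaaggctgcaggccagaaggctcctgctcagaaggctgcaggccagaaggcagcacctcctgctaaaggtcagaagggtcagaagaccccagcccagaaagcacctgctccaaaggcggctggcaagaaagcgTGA
Rps20: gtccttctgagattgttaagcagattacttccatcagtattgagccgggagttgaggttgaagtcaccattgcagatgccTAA
Rps9: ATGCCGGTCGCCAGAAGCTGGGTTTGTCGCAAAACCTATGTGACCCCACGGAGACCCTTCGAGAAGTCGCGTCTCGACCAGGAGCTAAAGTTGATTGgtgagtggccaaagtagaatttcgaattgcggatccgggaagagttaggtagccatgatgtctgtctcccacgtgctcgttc

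Rpl14, a protein of the large subunit, had the tallest peak of the 85 genes. It spanned 189 bp at chr9:120574212-120574400, of which 183 were coding bases and 6 lay in the 3′ UTR, and the authors marked it for coding sequence, stop codon and 3′ UTR. It held 198 RIP fragments (171 to 228), a pileup of 178.2, over a background of 82.0. Its fold enrichment of 2.16 (1.87 to 2.48) was low while its fragment count stood above 98.3% and its background above 96.6% of the table's peaks. The q-value in the authors' deposited table was 5.63e-16, the smallest of the 7. A processed pseudogene, Rpl14-ps1, inside Trpm4 on chromosome 7, carries this stretch at 98.9% identity, so fragments of the gene and of the copy could be placed at either.

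Rps20, of the small subunit, had the longest of these peaks, 430 bp at chr4:3834154-3834583. It covered 83 coding bases to the stop codon and 347 bases of 3′ UTR, with the summit 258 bp past the stop codon. The peak held 45 fragments (32.8 to 60.2), a pileup of 40.5 over a background of 15.0, for a fold enrichment of 2.59 (1.91 to 3.45). Its q-value in the authors' deposited table was 4.09e-05.

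Rps9, which sits near the mRNA channel of the small subunit, was the only member with a peak at the start codon. The 203 bp at chr7:3704328-3704530 held 24 bases of 5′ UTR, 97 coding bases and 82 bases of the next intron. The peak had 49 fragments (36.3 to 64.8), a pileup of 44.1 over a background of 14.0, and a fold enrichment of 3.01 (2.24 to 3.95), the highest of the 7. Its q-value in the authors' deposited table was 1.54e-07. The boundary between exon and intron lies inside the printed stretch, where the capitals end.

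The other 3 table peaks lay in 3′ UTRs alone. For each, 29 bases around the DRACH match nearest the summit are shown with the match in capitals. DRACH, the consensus around m6A, has A, G or T at D, A or G at R, and A, C or T at H. The stretches lie at chr11:97777696-97777724 (Rpl23, minus strand), chr14:18268133-18268161 (Rpl15, minus strand) and chr5:107908224-107908252 (Rpl5, plus strand).
Rpl23: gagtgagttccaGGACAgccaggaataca
Rpl15: ggtagtggctggTAACTgcctggatgttg
Rpl5: tttctccaggaaAAACCagcttacatggg

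Rpl23, a large subunit protein, had a peak of 192 bp at chr11:97777622-97777813, with the summit 374 bp past the stop codon. It held 71 fragments (55.5 to 89.6), a pileup of 63.9 over a background of 21.0, for a fold enrichment of 2.95 (2.31 to 3.71) and a q-value of 3.33e-10 in the authors' deposited table. Repeats mask 84.9% of the peak. The genome holds 14574 other places that match at least 80% of its length at 80% identity or more, and 108 at 90% or more, the best at 93.5%. How reads with several matches were placed is not given in the sources used here, so this value is uncertain.

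Rpl15, another large subunit protein, had 90 fragments (72.4 to 111) at the summit of a peak of 252 bp at chr14:18268019-18268270. Its pileup was 81.0 over a background of 32.0, for a fold enrichment of 2.48 (2.00 to 3.05) and a q-value of 9.07e-10 in the authors' deposited table. The peak lies beyond the end of the representative transcript, and all 252 bases fall in the longer 3′ UTR of another coding transcript of the gene. A place on chromosome 4 matches it at 96.3% identity.

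Rpl5 binds the 5S ribosomal RNA and, as part of that particle, the p53 regulator Mdm2. Its peak of 335 bp at chr5:107908070-107908404 had its summit 256 bp past the stop codon. It held 49 fragments (36.3 to 64.8), a pileup of 44.1 over a background of 20.0, and a fold enrichment of 2.15 (1.60 to 2.82), the lowest of the 7. Its q-value of 0.00102 in the authors' deposited table was the largest of the 7. The table also lists this peak for Fam69a, a gene on the opposite strand. Strand is not stated for the counting, so fragments of Rpl5 and of Fam69a cannot be told apart.

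**Figure D1:**
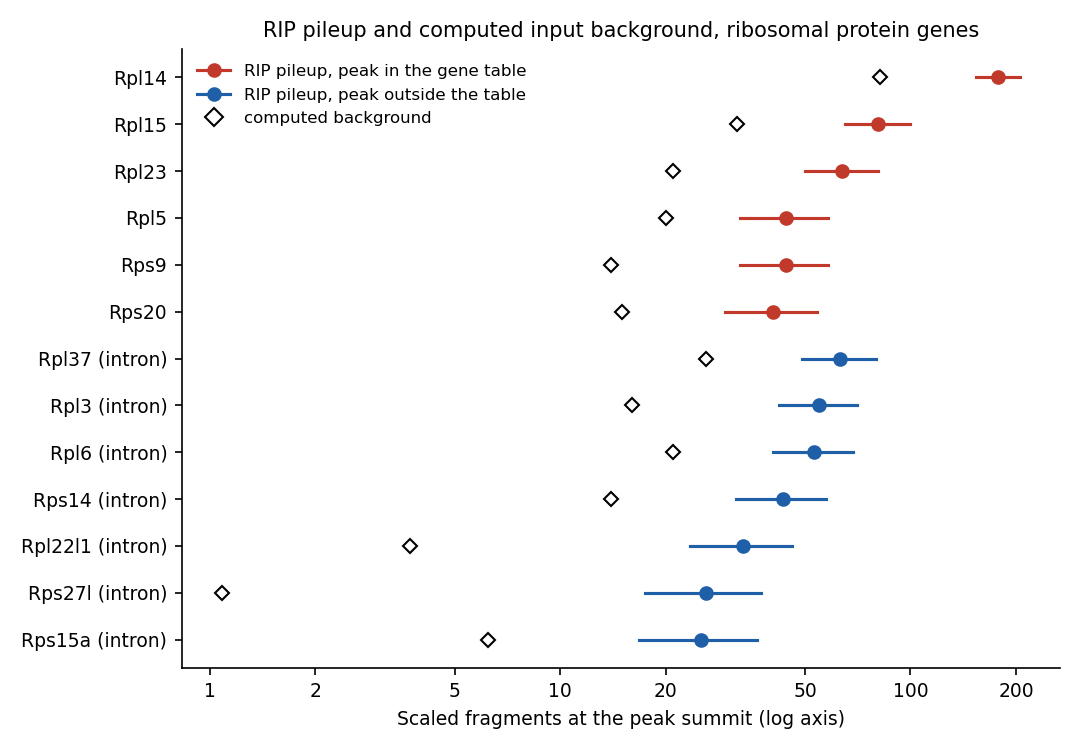
RIP pileup (filled circles) and computed input background (open diamonds) at the summit of 13 peaks over ribosomal protein genes, in scaled fragments on a log axis, from 1 RIP and 1 input library. Lines are exact 95% Poisson intervals of the RIP count; the 6 peaks from the gene table (red) run from 40.5 in Rps20 to 178.2 in Rpl14, and Rps27l has the lowest background, 1.08.

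Among the 7, Rpl14 was highest in both pileup and background, and the fold enrichment spanned only 2.15 to 3.01 (median 2.59). All 7 intervals share the range between 2.31 and 2.48, and the order of the 7 was not resolved at this depth. All 7 backgrounds were whole numbers, as were those of 79.6% of table peaks, and were read as input fragments. With counting error on both sides (exact conditional binomial), the pileup over the background, which is RIP over input fragments times the step of 0.9, was 3.15 (1.71 to 6.18) for Rps9 and 3.04 (1.85 to 5.21) for Rpl23. It was 2.70 (1.48 to 5.21) for Rps20, 2.53 (1.67 to 3.92) for Rpl15, 2.21 (1.29 to 3.92) for Rpl5 and 2.17 (1.67 to 2.85) for Rpl14. A peak is listed only where it passed the authors' caller, so lower bounds above 1 follow from the listing.

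The members' fold enrichment was low for the table: 33.2% of the 1541 table peaks reached 4 and none of the 7 did. A peak over many input fragments can pass the caller at a lower fold, so each was set beside table peaks whose background was within 25% of its own. Rpl14 stood above 82.4% of 91 such peaks, whose median was 1.83. Rpl15 at 2.48 and Rpl23 at 2.95 lay beside medians of 2.49 and 2.96. Rps9, Rps20 and Rpl5 stood above 34.1%, 14.8% and 9.93% of theirs, with medians of 3.29, 3.26 and 3.03. In all, 1 of the 7 was above the median of its like. Against the full list of peaks Rpl15 and Rpl23 passed theirs too, by less than the width of any interval.

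**Figure D2:**
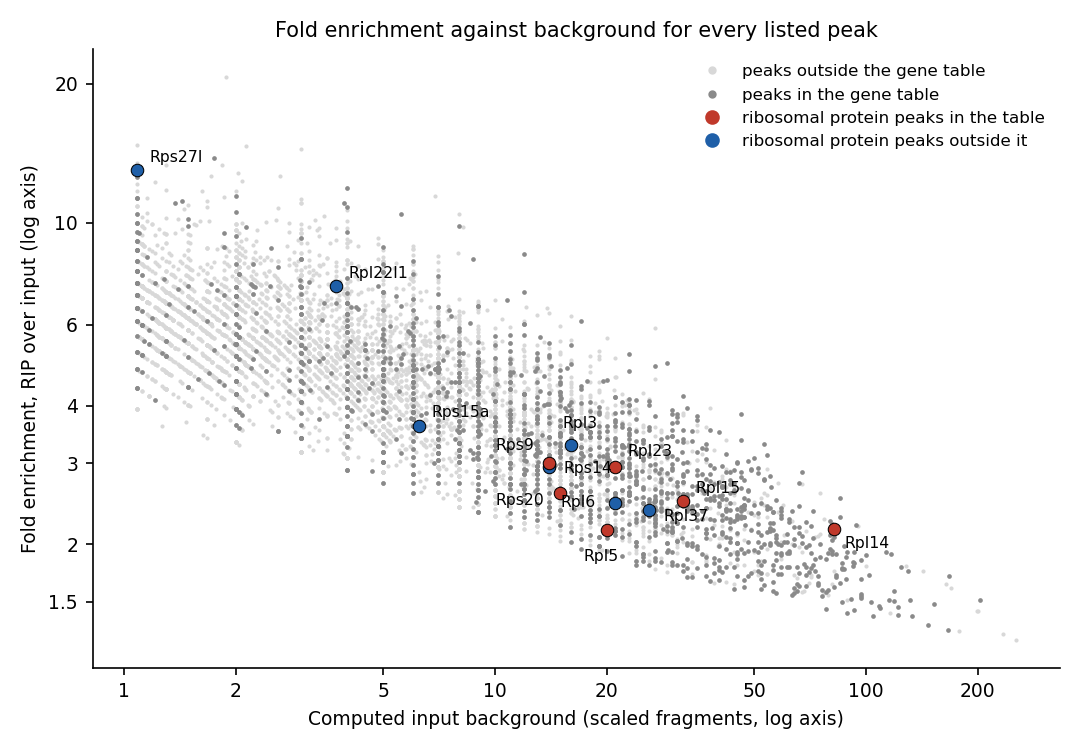
Fold enrichment (RIP over input, log axis) against computed input background (scaled fragments, log axis) for all 9271 listed peaks, with table peaks in dark grey and 13 ribosomal protein peaks named. The 6 named from the table (red) lie between 2.15 and 3.01, and the intron peaks of Rps27l and Rpl22l1 (blue) at 13.0 and 7.27 lie over lower backgrounds.

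By the authors' marks, 3 of the 7 peaks touched a stop codon (42.9%) and 3 lay in a 3′ UTR alone (42.9%), and 1 touched a start codon. Among all 1571 rows, 15.8% had the stop codon mark, 45.1% the 3′ UTR mark alone and 7.26% the start codon mark. Coding sequence was marked in 4 of 7 and in 43.1% of rows. With 7 peaks these shares rest on few counts, and no difference was tested.

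DRACH was found in 7 of 7, against 96.8% of the 1525 table peaks whose gene was matched by symbol, and at 17.0 against 17.8 matches per kb. GGAC, its core with G at the first 2 places, was found in 4 of 7 (Rpl5, Rpl14, Rpl15 and Rpl23), against 52.8%. In Rpl23 it lay 3 bp from the summit, as the capitals above show, in a peak that is mostly masked as repeat. GGACT was found in 1 of 7, Rpl15, against 21.6%. In the 100 bp at the centre of each peak GGAC was left in 1 of 7, Rpl23, against 25.4%, and DRACH in 6 of 7, against 79.3%. Rpl14 held 2 DRACH matches, Rpl23 held 7 and Rps20 held 8. Motifs were counted on the strand of the gene alone, GGAC and GGACT matches overlap DRACH, and no m6A was measured.

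The 8 peaks outside the gene table lay wholly in introns of coding transcripts, among them those of Rpl3, Rpl6, Rpl22l1, Rpl37, Rps14, Rps15a and Rps27l. Their fold enrichment had a median of 3.12 over a background of 15.0, against 4.58 over 4.28 for the 7168 intron peaks outside the table in all protein-coding genes.

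**Figure D3:**
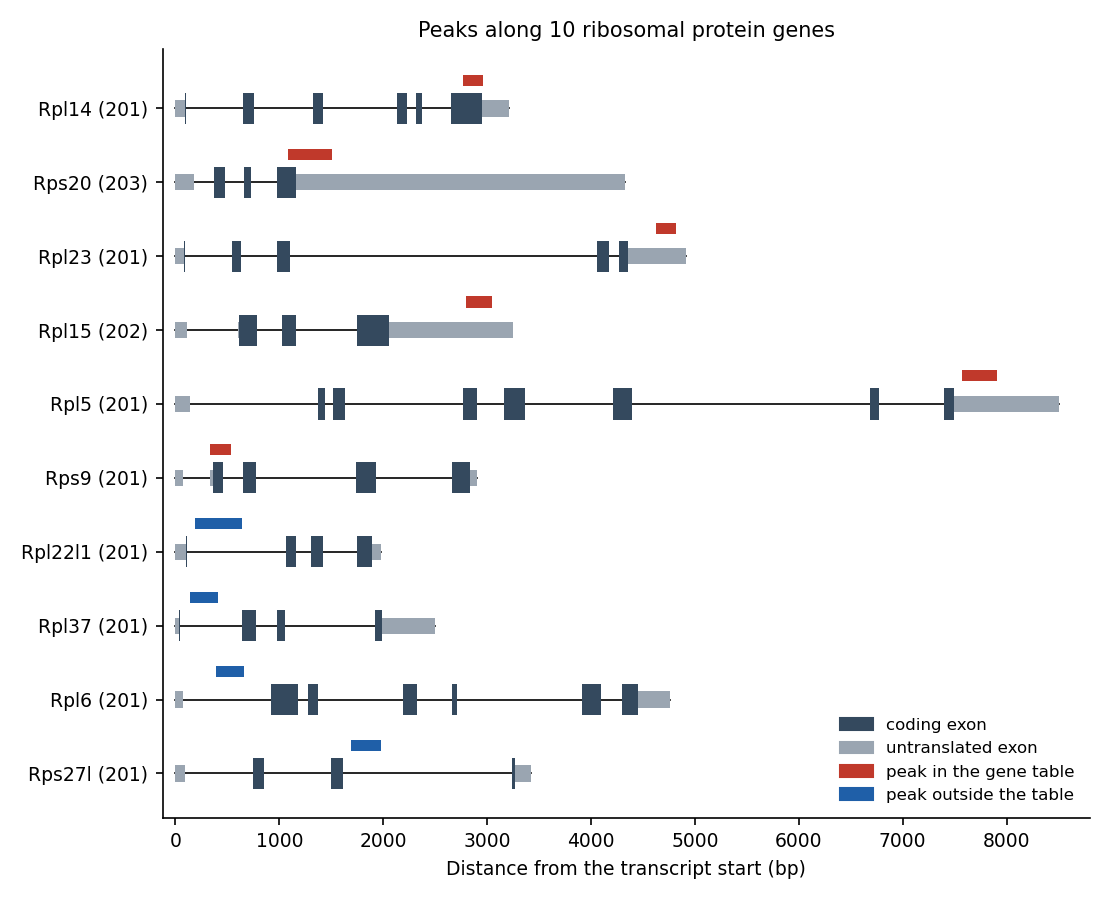
Peaks along 10 ribosomal protein genes with a peak, drawn from 5′ to 3′ on the transcript named in brackets, as distance from its start in bp (Rpl3, Rps14 and Rps15a, whose bodies span 11817 bp or more, are not drawn). Table peaks (red) lie over the last coding exon or the 3′ UTR except in Rps9, and peaks outside the table (blue) lie in introns, in the first intron in Rpl22l1, Rpl37 and Rpl6.

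The highest fold of all members was in Rps27l, a paralog of Rps27 that p53 induces. The whole peak, intron 3 at chr9:66947777-66948068 on the plus strand, is shown with DRACH matches in capitals. It is followed by 250 bases at the summit of the Rpl22l1 peak (chr3:28805635-28805884, plus strand), the second highest.
Rps27l: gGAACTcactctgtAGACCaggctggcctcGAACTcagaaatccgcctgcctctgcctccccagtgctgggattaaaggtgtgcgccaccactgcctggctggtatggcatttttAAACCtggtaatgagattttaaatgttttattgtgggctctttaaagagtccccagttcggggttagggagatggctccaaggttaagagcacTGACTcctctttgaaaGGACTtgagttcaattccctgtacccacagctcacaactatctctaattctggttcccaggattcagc
Rpl22l1: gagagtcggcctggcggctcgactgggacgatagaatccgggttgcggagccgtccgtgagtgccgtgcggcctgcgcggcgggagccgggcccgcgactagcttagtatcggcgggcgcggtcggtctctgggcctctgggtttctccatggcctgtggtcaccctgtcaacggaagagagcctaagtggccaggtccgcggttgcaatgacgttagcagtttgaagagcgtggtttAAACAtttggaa

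The Rps27l peak held 29 RIP fragments (19.4 to 41.6), a pileup of 26.1, over a background of 1.08. At this rounding 1.08 is also the lowest value in the full list, and 0.389% of table peaks had a lower background before rounding. Its fold enrichment of 13.0 (8.88 to 18.5) ranked 9 of 9271 and stood above all 69 table peaks of like background. In the full list, which holds the intron peaks, it stood above 99.6% of 857 such peaks. Repeats mask 79.1% of it, and no other place in the genome matched 80% of its length at 80% identity, the best at 78.0%. Parts of it had 192689 matches elsewhere, against 193270 for the Rpl23 peak, so this value is uncertain for the same reason. Its summit lay 258 bp from the start of the nearest coding transcript and 1814 bp from that of the representative one. This background was not a whole number, so it was not read as a count of input fragments at the summit. The interval holds it fixed, so the input limits this fold more than the interval shows. Backgrounds of Rpl22l1 (3.72) and Rps15a (6.23), next in fold among the members' peaks, were not whole either.

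Rpl22l1, a paralog of Rpl22, had a peak of 447 bp at chr3:28805628-28806074 in intron 1. It held 37 fragments (26.1 to 51.0), a pileup of 33.3 over a background of 3.72, and its fold enrichment of 7.27 (5.18 to 9.94) was above 92.3% of table peaks of like background. No base was masked and no other place in the genome matched. Exons of 3 noncoding isoforms of the gene, processed and retained-intron transcripts, overlap the peak.

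A peak in Rpl6, another large subunit protein, lay over an snoRNA, which is shown as the annotated RNA under the peak. The RNA is Gm26205 (chr5:121205010-121205143, plus strand), with ACA in capitals 3 bases from the 3′ end, the letters found there in the H/ACA class of snoRNAs. Of 1507 annotated snoRNAs, 18.3% hold ACA at that place.
Gm26205: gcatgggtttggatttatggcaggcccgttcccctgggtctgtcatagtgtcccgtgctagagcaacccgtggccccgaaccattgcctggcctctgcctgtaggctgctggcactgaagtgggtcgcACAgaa

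The Rpl6 peak, in intron 1 at chr5:121204875-121205142, held 59 fragments (44.9 to 76.1), a pileup of 53.1 over a background of 21.0, for a fold enrichment of 2.46 (1.88 to 3.16). An snoRNA lay under 2 of the members' 8 intron peaks and under 5 of the 7168 of all genes (0.0698%). A retained-intron transcript overlaps the Rpl6 peak, so fragments of an snoRNA and of an unspliced transcript cannot be told apart.

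Of the 8 intron peaks, 5 overlapped an exon of such a noncoding isoform (62.5%), among them those of Rpl22l1, Rpl37, Rpl6 and Rps14, against 5.15% of intron peaks of all genes. These 4 held no masked base, had a GC content of 55.9% to 71.7%, and had their summits 181 to 521 bp from the start of a coding transcript. Rpl37, in intron 1 at chr15:5116784-5117050, had 70 fragments (54.6 to 88.4) over 26.0 and a fold enrichment of 2.37 (1.86 to 2.99). Rps14, in intron 1 at chr18:60774813-60775003, had 48 (35.4 to 63.6) over 14.0 and a fold enrichment of 2.95 (2.19 to 3.89). All told, 6 of the 8 lay within 1000 bp of the start of a coding transcript (75.0%), against 2.94% of intron peaks of all genes. The first 1000 bp of the gene body made up 22.6% of the bases of these short genes and 2.02% of those of all genes. That share is of gene bodies, while summits were measured from the nearest start of any coding transcript. It is therefore not a like baseline for the 75.0%.

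The other 3 intron peaks had 47.4% to 91.1% of their bases in repeats. Rpl3, which lies near the peptidyl transferase centre, had a peak in intron 6 at chr15:80079017-80079207. It held 61 fragments (46.7 to 78.4) over a background of 16.0, for a fold enrichment of 3.29 (2.53 to 4.21). Its sequence matched 85478 other places in the genome at 80% identity or more and 43 at 95% or more. Rps15a had a peak in intron 3 at chr7:118112529-118112722 with 28 fragments (18.6 to 40.5) over 6.23 and a fold enrichment of 3.62 (2.45 to 5.18), and 922 other places matched it at 80% or more. With Rps27l these make up the repeat-rich peaks, and the values of all 3 are uncertain for the same reason as that of Rpl23.

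No listed peak touched the other 71 members, 41 of the large subunit, 27 of the small subunit and all 3 of the stalk. Among them were Rpl11, the partner of Rpl5 in the 5S particle, Rpl3l, the form of Rpl3 found in muscle, and Rps6, the substrate of the S6 kinases. A gene without a peak may be bound at or below its input level, or be too little covered for a peak.

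By gene structure, the 7 members with a row had a median body of 3569 bp, an mRNA of 1009 bases and a coding sequence of 612 bases. The 71 without a peak had medians of 3232 bp, 738 and 453 bases. An snoRNA lay in 4 of the 7 with a row (57.1%), in 3 of the 7 with a peak only outside the table (42.9%) and in 23 of the 71 (32.4%). A TOP-like start was read in 2 of the 5 with a row that had a promoter entry (Rpl14 and Rpl15), in 1 of 5 and in 11 of 55. These are counts of few genes and were not tested.

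Other parts of the translation machinery were counted from lists written by symbol, beside 5.81% of all protein-coding genes with a row. Mitochondrial ribosomal proteins, which form the ribosome of that organelle, had a row for 10 of 75 (13.3%, interval 7.41 to 22.8). Mrpl18 at 7.73 (5.92 to 9.93) and Mrpl1 at 4.97 (3.45 to 6.94) led these, followed by Mrpl13 at 3.35 (2.78 to 4.01) and Mrpl53 at 3.14 (2.54 to 3.83). Their median fold was 3.04 over a background of 23.0. Initiation factors had 9 of 55 (16.4%, interval 8.86 to 28.3) with a median of 3.27 over 17.0. Eif4e3, a cap-binding protein, stood at 6.80 (5.47 to 8.36), and Eif2s2, Eif5 and Eif4a2 at 4.64 (3.48 to 6.07), 3.60 (2.90 to 4.44) and 3.39 (2.78 to 4.08). All of these intervals on shares overlap that of the cytosolic proteins. Median gene bodies differed, at 3289 bp for the cytosolic, 7905 bp for the mitochondrial and 18756 bp for the initiation factor genes, and the part of gene length was not tested.

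Smaller lists of related genes were counted as well, beside the same 5.81% of all protein-coding genes. The list of elongation and termination factors had a row for 1 of 14 (7.14%), Eef1e1 at 3.95 (2.77 to 5.47). Eef1e1 was included by its symbol, which does not show a role in elongation, and no other gene of that list had a row. Ribosomal proteins with other symbols had 0 of 3. Other mRNAs known for a TOP tract had 1 of 19 (5.26%), Eif3e at 3.10 (2.02 to 4.58). Regulators of ribosomal protein mRNA translation and kinases had 3 of 14 (21.4%, interval 7.57 to 47.6). These were the S6 kinase Rps6kb1 at 5.07 (3.48 to 7.16), Rps6ka3 at 4.75 (3.67 to 6.05) and the RNA-binding protein Larp4b at 1.64 (1.33 to 1.99). The median gene body of this list was 66771 bp, against 17403 bp for all protein-coding genes, and the part of gene length was not tested.

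**Figure D4:**
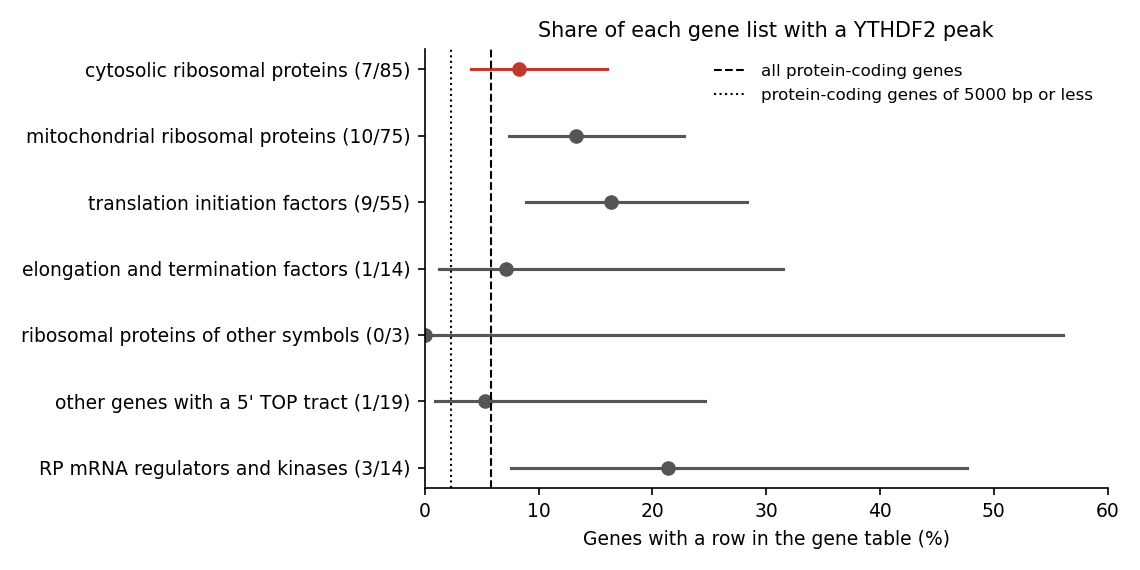
Share of each gene list with a row in the authors' gene table (percent; points, with Wilson 95% intervals as lines; gene counts in brackets). The dashed line is the share of all protein-coding genes, 5.81%, and the dotted line that of genes of 5000 bp or less, 2.29%; the cytosolic ribosomal proteins (red) lie at 8.24%.

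The authors' deposited table of pathways set 12 peak genes beside 6.57 expected for the KEGG term Ribosome, of 113 annotated genes, with a Fisher p-value of 0.0306 and an FDR of 0.203. It ranked 33 of 219 pathways. Of these 12 genes, 5 were cytosolic, among them Rpl14, Rpl23, Rps9 and Rps20, and 7 mitochondrial. In the authors' deposited table of Gene Ontology terms, cytosolic ribosome had 5 genes where 4.12 were expected (p-value 0.395). The large cytosolic subunit had 2 where 2.27 were expected in that deposited table of the authors (p-value 0.673), and the small had 3 where 1.66 were expected (p-value 0.229). In the same authors' deposited table the mitochondrial large subunit had 5 where 1.29 were expected, with a p-value of 0.00771 and an FDR of 0.104. Rpl5 and Rpl15 were not in the gene lists of these terms.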

How the data were processed

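Fragments of 1 YTHDF2 RIP library and 1 input library of C2C12 myotubes were compared. The authors used Bowtie against mm10 and then MACS, per the labels' design text. DiffBind, deepTools, HOMER, Picard, Trim Galore and FastQC are also named, per the submitters' processing notes. For versions, caller settings, strand and reads with several matches, nothing is given in the sources used here. A peak list was deposited with columns that, per the file headers, are the pileup signal, fold enrichment (a linear ratio) and −log10 of the p-value and q-value, all 1 value per peak and the authors' own. Their deposited gene table pairs peaks with genes and marked elements, and their deposited tables of terms give gene counts, an expected number (a score), a p-value and an FDR. A deposited table of elements gives a count and a percent of peaks.

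Background was computed as (pileup + 1)/fold − 1, and its Poisson tail matched 100% of the deposited −log10 p-values within 0.01. In 59.9% of peaks it came out whole (tolerance 0.01). No total is given, so depth is unknown. Peaks outside the table were placed by overlap of 1 bp or more with GENCODE M21 on GRCm38. In that sequence 85 of 85 start codons and 85 of 85 stop codons of the members read as codons. Of the 1285 gene symbols in the table, 1269 matched by symbol, 12 by synonym and 4 were unmatched. Near-identical places were searched with BLAST 2.17.0, counting those over 80% of a peak's length. Promoters came from RefSeq. Scripts used Python 3.11.15 and scipy 1.17.1 and were tested on simulated data.

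With 1 library a group no test of a difference was possible. Members with a peak are named with their values, and members without one are given by counts; some members are counted but not reported here by name. Of each other list only genes with a row are named, at most 4 by fold enrichment. Members and lists were chosen with earlier results of these data known. Alternatives were the q-value, fold, assignment, overlap, member definition, background band, element rule and motif window; exons of coding transcripts and the 5000 bp limit were chosen after seeing the data.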

Additional observations from a re-analysis of the deposited data

How the results depend on the processing

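Of 21 alternative settings 8 moved a value. The count of members with a peak was 7 in the authors' deposited gene table. It was 4 with a q-value of 1e-05 or less and 0 with a fold enrichment of 4 or more, where fewer peaks were kept. It was 11 with any listed peak over an exon, 11 with the centre of a peak in an exon, 11 with most of a peak in exons and 14 over gene bodies, where intron peaks and exons of noncoding isoforms enter. It stayed at 7 without paralogs, with 3 ribosomal proteins of other symbols added, and over exons of coding transcripts. The number of members above the median fold of peaks of like background was 1 of 7 in the table and 3 of 7 in the full list. GGAC was in 4 of 7 whole peaks and in 1 of 7 in the 100 bp at the centre, a shorter window. Median fold enrichment (2.59) ran from 2.54 to 2.85 over assignments, and median background (20.0) from 16.0 to 20.5. No paired analysis was possible because each group holds 1 sample. With 1 library a group, counting error is the only error given. Fold values over low backgrounds that are not whole numbers have no count of input fragments at the summit beside them.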

Other observations

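Pseudogenes of ribosomal protein genes, which are left out of the 85, also carried listed peaks, all of them outside the authors' deposited gene table: 4 of 300 by symbol. A listed peak lay over the body of 15.0% of all protein-coding genes and of 2.62% of those of 5000 bp or less. The share over all pseudogenes was not computed. Rpl10a-ps1, a processed pseudogene at chr1:64994033-64994390, held 256 RIP fragments over a background of 178, for a fold enrichment of 1.29 (1.14 to 1.46), and ranked 10 of 9271 peaks by fragments. Rpl36a-ps2, inside Ddah1 at chr3:145879084-145879270, held 203 over 67.0, for 2.70 (2.34 to 3.10). Rpl36a-ps1 (chr14:98993893-98994093), which GENCODE M21 lists as protein-coding, held 113 over 19.0, for 5.13 (4.24 to 6.16). Rpl34-ps1 (chr6:71124742-71124948) held 64 over 9.0, for 5.86 (4.54 to 7.46). Each matched another place in the genome at 97.0% to 99.0% identity. The parent genes Rpl10a, Rpl34 and Rpl36a had no listed peak. Fragments of a spliced parent mRNA and of its intronless copy cannot be told apart here.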
